A study of Mus musculus with 5 samples.

Results

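The genes described here are 10 immune checkpoint ligands and receptors, chosen by name and matched through their mouse symbols to the Ensembl identifiers of the count files. They are Cd274, Pdcd1lg2, Pdcd1, Ctla4, Lag3, Havcr2, Tigit, Vsir, Cd276 and Lgals9, which are 10 of the 55573 genes counted, and all 10 had enough counts to be among the 23592 genes tested. RNA was sequenced from the right brain hemisphere of female C57BL/6 mice that carried an intracranial GL261 tumor, a mouse glioma line grown in immunocompetent hosts and here transduced with luciferase and mKate2. The mice were 7 to 8 weeks old at inoculation, and all of them had a bioluminescent tumor. In 3 mice only the antibody dilution buffer was given (vehicle), and 2 mice had ultrasound-mediated blood-brain barrier opening (UMBO), low-intensity pulsed ultrasound applied together with intravenous microbubbles. Sessions fell on days 21 and 24, with tissue taken 24 h after the last session. A further UMBO mouse of the study was not analysed here. No mouse of either group is labelled as given a checkpoint antibody.

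Immune checkpoints are ligand and receptor pairs that restrain T cells. PD-L1 (Cd274) and PD-L2 (Pdcd1lg2) bind PD-1 (Pdcd1) on activated T cells, CTLA-4 competes with CD28 for CD80 and CD86, TIGIT competes with CD226 for the poliovirus receptor, LAG-3 binds MHC class II, and TIM-3 (Havcr2) binds galectin-9 (Lgals9) among other ligands. Several of these genes are not restricted to lymphocytes: in the brain, TIM-3, VISTA (Vsir) and galectin-9 are expressed by microglia and macrophages, and PD-L1 is induced by interferon-gamma in tumor and myeloid cells. PD-L1 is also the target of the antibody that was combined with UMBO elsewhere in the study, so its RNA after UMBO alone bears on how much target was transcribed.

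Total counts lay between 59736771 and 86164159 per library, so counting error matters mainly for the rarest genes. UMBO replicate 2 stood apart, at 133.7 on the first component of variation against -68.4 to 17.0 for the other libraries, and the fold changes of the checkpoint genes are therefore also given without it. Leaving out either UMBO library leaves 1 UMBO library, which is then assumed to vary like the vehicle libraries. Markers of neurons, astrocytes and oligodendrocytes, cells of the sequenced brain hemisphere, were detected in all 5 libraries. Levels are given as CPM (counts scaled to a common library size with edgeR's TMM factors). The summed neuronal level was 4966 to 7734 CPM with vehicle and 5167 CPM in UMBO replicate 1. In UMBO replicate 2 it was lowest, at 2530 CPM, so this library also differed in its neuronal RNA. Over all genes, edgeR's quasi-likelihood test called 0 (0% of 23592) after adjustment at 0.05, while 1738 (7.37%) had an unadjusted p below that value, and DESeq2's Wald test called 39.

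All 10 checkpoint genes had a positive log2 fold change (UMBO minus vehicle), where 50.9% of all tested genes did, and the median over the 10 was 0.75 against 0.01 over all genes. None of the 10 passed adjustment over all genes, with adjusted p from 0.497 to 0.831 in edgeR and from 0.324 to 0.843 in DESeq2. At an unadjusted p under 0.05 in edgeR there were 4 of the 10, all higher with UMBO (Vsir, Lag3, Lgals9 and Havcr2), against a background of 5.30% of genes in that direction, and none was lower, against 2.06% of genes. With DESeq2 there were 5, where 4.93% of all 55573 genes counted had such a p in either direction. That share spans more genes than the 23592 tested in edgeR. Only 40435 genes had a count in any library, and a gene without counts can have no p, so 4.93% is too low a background. The 2 UMBO libraries lay above all 3 vehicle libraries in 3 of the 10 genes (Vsir, Lag3 and Havcr2), against 11.5% of all genes. UMBO replicate 2 held the highest level of 9 of the 10 genes, while vehicle replicate 1 held the lowest level of 9. Without UMBO replicate 2, in a fit of 1 UMBO library against 3 vehicle libraries, the median was 0.26. Checkpoint genes with an unadjusted p under 0.05 in edgeR numbered 0 without vehicle replicate 1, against 1.28% of all genes. They numbered 0 without vehicle replicate 3, against 1.88%, and 6 without vehicle replicate 2, against 11.6%. The 10 genes share the same 5 libraries and are not independent of each other. In bulk tissue, more cells of a type and more RNA per cell cannot be told apart.

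**Figure D1:**
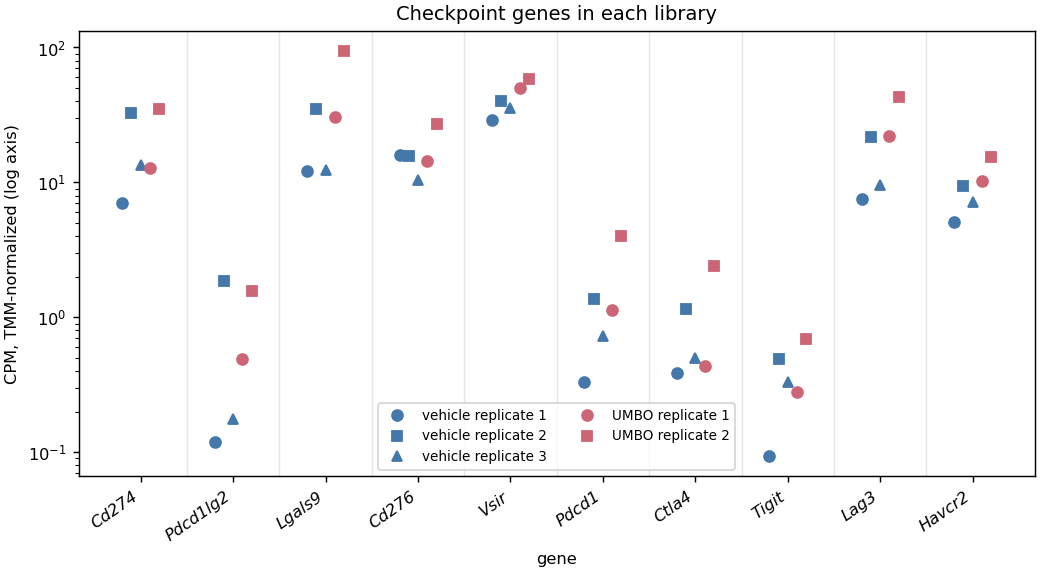
Level of each of the 10 checkpoint genes in each library, as TMM-normalized CPM on a log axis. Blue points are the 3 vehicle libraries and red points the 2 UMBO libraries; in Vsir, Lag3 and Havcr2 both red points lie above every blue point, and in Cd274 UMBO replicate 1 lies among the vehicle libraries.

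Of the PD-1 ligands, Cd274 (chromosome 19 of GRCm38, 29367455 to 29388095, forward strand) had 7.09, 32.7 and 13.4 CPM in vehicle replicates 1 to 3, and 12.8 and 35.1 CPM in UMBO replicates 1 and 2. The highest vehicle library was thus close to the highest UMBO library, and the groups overlapped. In edgeR its log2 fold change was 0.43 (standard error 0.71, 95% interval -1.29 to 2.16, adjusted p 0.742). It was -0.48 without UMBO replicate 2 and 1.26 without vehicle replicate 2, so its direction was set by single libraries, and the interval holds both a loss and a gain of more than 2-fold. Cd274 shares 511 exonic bases with AC119228.1 on the opposite strand, and the strand setting of the counting is not given in the sources used here.

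Pdcd1lg2 lies directly downstream of Cd274 on chromosome 19 (29410919 to 29471161, forward strand) and was much rarer. It was counted 9, 126 and 15 times in the vehicle libraries and 42 and 102 times in the UMBO libraries, or 0.12, 1.87, 0.177, 0.491 and 1.56 CPM. As for Cd274, vehicle replicate 2 was high and vehicle replicates 1 and 3 were low. Its log2 fold change of 0.51 had the widest interval of the 10 genes, from -2.47 to 3.48 (edgeR), and was -0.54 without UMBO replicate 2. Per exonic length, Cd274 exceeded Pdcd1lg2 by 9.47-fold to 40.8-fold in the vehicle libraries and by 14.1-fold and 12.2-fold in the UMBO libraries.

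Lgals9 (chromosome 11, 78962974 to 78984946, reverse strand) encodes galectin-9, a secreted lectin that binds TIM-3 and other glycoproteins. Its level was 12.1, 35.3 and 12.3 CPM with vehicle and 30.5 and 93.4 CPM with UMBO. UMBO replicate 1 lay below vehicle replicate 2, so the groups overlapped, although the mean was 3.11-fold higher with UMBO. This gave a log2 fold change of 1.64 (standard error 0.65, 95% interval 0.05 to 3.22), with an unadjusted p of 0.0446 and an adjusted p of 0.497 in edgeR. The value was 0.61 without UMBO replicate 2.

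The 250 bases that precede the RefSeq start of Cd274 and Lgals9 are shown because these are the antibody target and the ligand with the largest difference, and because both are interferon-inducible genes. They are RefSeq sequence of GRCm38.p6, read 5′ to 3′ on the strand of the gene, chr19:29367188-29367437 for Cd274 and chr11:78984925-78985174 for Lgals9. Capitals mark a match to the core of the interferon-stimulated response element, searched as GAAANNGAA on both strands.
Cd274: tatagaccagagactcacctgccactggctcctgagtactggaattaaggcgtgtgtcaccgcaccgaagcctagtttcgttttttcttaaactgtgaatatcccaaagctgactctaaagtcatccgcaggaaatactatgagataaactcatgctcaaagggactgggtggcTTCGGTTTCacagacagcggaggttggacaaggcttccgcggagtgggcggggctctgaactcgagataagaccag
Lgals9: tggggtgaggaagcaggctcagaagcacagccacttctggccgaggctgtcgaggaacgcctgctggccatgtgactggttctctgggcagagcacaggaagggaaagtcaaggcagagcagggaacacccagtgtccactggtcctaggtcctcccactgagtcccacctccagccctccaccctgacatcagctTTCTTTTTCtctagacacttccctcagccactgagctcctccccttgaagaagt
Promoter sequence was found for 9 of the 10 genes, and 3 of these held a match, each on the other strand. It was TTCGGTTTC at 76 to 68 bases before the start of Cd274, TTCTTTTTC at 54 to 46 bases before that of Lgals9, and TTCAGTTTC at 166 to 158 bases before that of Ctla4. The same letters occur in 7.13% of 32851 RefSeq promoter windows of this length. A longer form with 1 more A at its end had been searched first, and it matched Lgals9 alone of the 9 and 2.98% of windows. The shorter form was taken up after that result was seen, so the number of matching genes depends on this choice. No window of the 9 genes held the gamma-activated sequence searched as TTCNNNGAA, found in 7.02% of windows, or the E-box CACGTG, found in 6.02%. These are matches of letters in a short window and say nothing of binding.

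Cd276 and Vsir are B7-family proteins that restrain T cells. Cd276 (B7-H3; chromosome 9, 58524298 to 58555437, reverse strand) was at 16.1, 15.6 and 10.5 CPM with vehicle and at 14.4 and 27.2 CPM with UMBO. UMBO replicate 1 lay within the vehicle range, and only UMBO replicate 2 was above it. The difference was 0.56 on the log2 scale (standard error 0.34, adjusted p 0.497, edgeR) and 0.04 without UMBO replicate 2. Cd276 shares 416 exonic bases with Gm10657 on the opposite strand.

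Vsir (VISTA; chromosome 10, 60346851 to 60372684, forward strand), which acts both as a ligand and as a receptor and is abundant on myeloid cells, gave the most even difference. Its level was 28.9, 40.4 and 35.5 CPM with vehicle and 49.8 and 58.9 CPM with UMBO. The groups did not overlap, and the gap between the lowest UMBO and the highest vehicle library was larger than the vehicle SD of 5.78. Its log2 fold change was 0.64 (standard error 0.20, 95% interval 0.15 to 1.13), with an unadjusted p of 0.019 and an adjusted p of 0.497 in edgeR. With each library left out it ranged from 0.51 to 0.78, the narrowest range of the 10 genes.

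Among the receptors, Pdcd1 (PD-1; chromosome 1, 94038305 to 94052553, reverse strand) had the largest log2 fold change of the 10, just above that of Lgals9. It was counted 25, 92 and 62 times with vehicle and 97 and 262 times with UMBO, or 0.334, 1.36, 0.732, 1.13 and 4.0 CPM. UMBO replicate 1 lay below vehicle replicate 2, so the groups overlapped. Its log2 fold change was 1.66 (standard error 0.74, 95% interval -0.14 to 3.47), with an unadjusted p of 0.0653 in edgeR and 0.0219 in DESeq2, and it was 0.49 without UMBO replicate 2.

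Ctla4 and Tigit, both receptors of activated and regulatory T cells, were rare. Ctla4 (chromosome 1, 60887000 to 60915832, forward strand) was at 0.388, 1.16 and 0.496 CPM with vehicle and 0.433 and 2.4 CPM with UMBO. Tigit (chromosome 16, 43648867 to 43664146, reverse strand) was counted only 7, 33 and 28 times with vehicle and 24 and 45 times with UMBO. In both genes UMBO replicate 1 lay inside the vehicle range. In edgeR the log2 fold change was 1.05 for Ctla4 (standard error 0.81) and 0.66 for Tigit (standard error 0.74). Without UMBO replicate 2 these were -0.64 and -0.11.

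Lag3 (chromosome 6, 124904361 to 124911705, reverse strand) encodes a CD4-related receptor for MHC class II that is induced on activated T cells, and its RNA is also found in brain cells. It was at 7.56, 21.8 and 9.61 CPM with vehicle and at 21.9 and 42.8 CPM with UMBO. The groups did not overlap, but UMBO replicate 1 exceeded vehicle replicate 2 by less than the spread between any 2 vehicle libraries, and with scaling by library size alone or with a stricter filter the order of these 2 libraries turned. On the log2 scale the difference was 1.32 (standard error 0.52, 95% interval 0.05 to 2.59), with an unadjusted p of 0.0437 and an adjusted p of 0.497 in edgeR. It was 0.76 without UMBO replicate 2 and 1.95 without vehicle replicate 2.

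Havcr2 (TIM-3; chromosome 11, 46454935 to 46481255, forward strand), a receptor of exhausted T cells that is also expressed by microglia and other myeloid cells, was at 5.08, 9.48 and 7.10 CPM with vehicle and 10.2 and 15.5 CPM with UMBO. All UMBO values were above all vehicle values, UMBO replicate 1 by a small margin. On the log2 scale it differed by 0.83 (standard error 0.34, 95% interval 0.00 to 1.66), an unadjusted p of 0.0499 and an adjusted p of 0.497 in edgeR, and it ranged from 0.50 to 1.11 with each library left out.

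**Figure D2:**
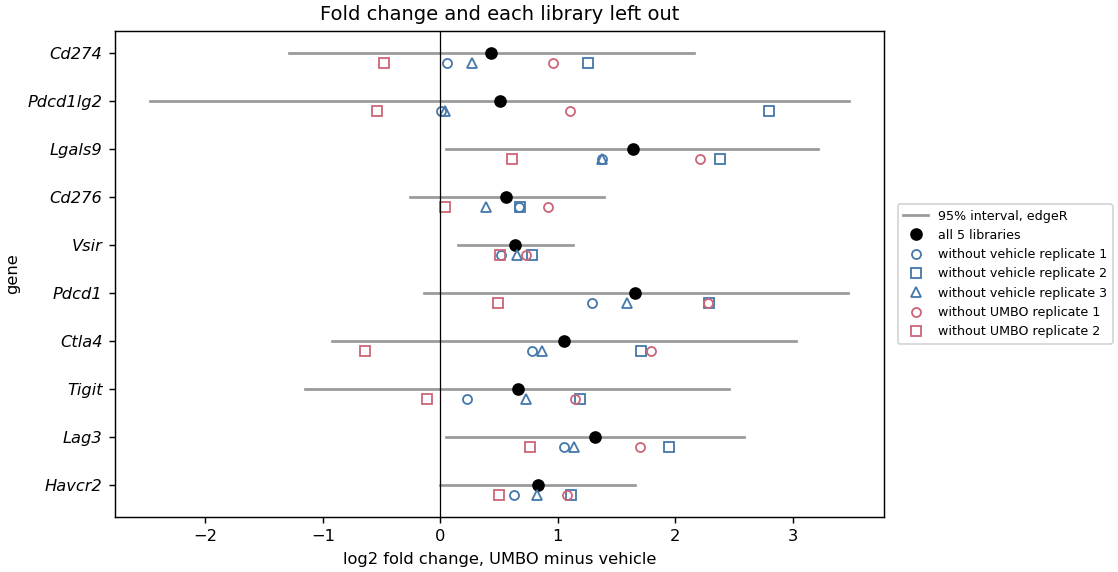
Log2 fold change (UMBO minus vehicle) of each checkpoint gene from edgeR, black with its 95% interval from all 5 libraries and open symbols with the named library left out. Leaving out UMBO replicate 2 gives the lowest value in all 10 genes, below 0 for Cd274, Pdcd1lg2, Ctla4 and Tigit, whereas Vsir stays between 0.51 and 0.78.

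Compared per exonic length (TPM, the count per exonic kilobase scaled to a fixed total per library, from merged exons of GENCODE M21), the 10 genes fell into a higher and a lower set. Lgals9 had the highest mean level over the 5 libraries, 42.3 ± 34.9 TPM (SD, n = 5), which UMBO replicate 2 raised (101 TPM). It lay above Lag3 in 5 of 5 libraries but above Vsir in only 3 of 5, being below Vsir in vehicle replicates 1 and 3. Lag3 (24.6 ± 14.8 TPM) and Vsir (22.0 ± 5.40 TPM) could not be ordered, since Lag3 was above Vsir in only 3 of 5 libraries. Cd274 (14.0 ± 7.70 TPM) and Cd276 (11.6 ± 3.27 TPM) likewise exchanged order, with Cd274 above in 3 of 5 libraries. Havcr2 followed at 8.90 ± 3.12 TPM and was above Pdcd1 in all 5 libraries. Pdcd1 (1.94 ± 1.67 TPM), Pdcd1lg2 (1.05 ± 0.958 TPM), Tigit (1.04 ± 0.543 TPM) and Ctla4 (1.03 ± 0.812 TPM) were all rare, and the last 3 did not differ beyond their spread. These SDs span both groups.

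Each receptor was also put beside T cell marker RNA of the same library, and each gene expressed by myeloid cells beside myeloid marker RNA. The summed CPM of the T cell receptor chains Cd3d, Cd3e and Cd3g was 1.39, 7.17 and 3.69 with vehicle and 2.09 and 14.3 with UMBO, so it was low in UMBO replicate 1 and highest in UMBO replicate 2. The 10 ratios were tested on the log2 scale with a 2-sided exact permutation test, whose smallest possible p with 3 against 2 libraries is 0.1, and adjusted p over the 10 ratios were 0.5 to 0.9.

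Relative to CD3 RNA, Pdcd1 was at 24.0%, 19.0% and 19.9% in the vehicle libraries and at 54.2% and 27.9% in the UMBO libraries. The groups did not overlap, although UMBO replicate 2 was near the vehicle values. The difference was 0.90 on the log2 scale (exact permutation p = 0.1, the smallest possible), and 0.42 without UMBO replicate 1. The difference in Ctla4 relative to CD3 RNA was smaller, at 27.9%, 16.1% and 13.5% with vehicle and 20.7% and 16.7% with UMBO, or 0.03 on the log2 scale (exact permutation p = 0.9), although its vehicle libraries were spread more widely (log2 SD 0.55 against 0.18 for Pdcd1). Lag3 RNA was not proportional to CD3 RNA. It amounted to 543%, 304% and 261% of the CD3 sum with vehicle, and to 1047% in UMBO replicate 1 but 298% in UMBO replicate 2. Havcr2 was spread as widely, from 108% in UMBO replicate 2 to 487% in UMBO replicate 1. For Lag3 the difference was 0.67 (exact permutation p = 0.6), with overlap. With Cd247, Cd2, Lck and Zap70 as the T cell markers, it was 0.77 for Lag3 and 0.99 for Pdcd1 (exact permutation p = 0.1 each), both without overlap. With these markers the groups overlapped in Ctla4 (0.12), Tigit (0.20) and Havcr2 (0.22). Whether Lag3 overlapped thus depended on the marker set.

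The summed CPM of 5 myeloid genes (Itgam, Csf1r, Aif1, Cd68 and Tyrobp) was 136, 238 and 173 with vehicle and 293 and 467 with UMBO, higher in both UMBO libraries. Havcr2 held a narrow range of shares of this sum, at 3.75%, 3.98% and 4.10% with vehicle and 3.48% and 3.32% with UMBO. Both UMBO libraries lay below every vehicle library. The difference of -0.21 on the log2 scale was small beside the difference in level. It had an exact permutation p of 0.1, the smallest possible. The narrow range depended on Csf1r, the most abundant of the 5 genes in all 5 libraries. Of the other 4 genes summed, Havcr2 made up 13.9%, 9.73% and 15.2% with vehicle and 9.95% and 5.29% with UMBO. Of the sum of 5 genes, Vsir was at 21.3%, 17.0% and 20.5% with vehicle and 17.0% and 12.6% with UMBO, and Lgals9 at 8.92%, 14.8% and 7.09% with vehicle and 10.4% and 20.0% with UMBO. The higher levels of Havcr2 and Vsir with UMBO thus stood beside a higher myeloid marker level, whose part in them was not tested.

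Cd274 was at 5.23%, 13.7% and 7.71% of the myeloid sum with vehicle and at 4.35% and 7.53% with UMBO, a difference of -0.52 (exact permutation p = 0.4) that was -0.92 without UMBO replicate 2. Csf1r made up 37.1% to 73.1% of the myeloid sum, and without it, an alternative chosen after seeing the data, Cd274 was at 19.4%, 33.6% and 28.7% with vehicle, at 12.5% in UMBO replicate 1 and slightly lower in UMBO replicate 2. The groups then did not overlap, with a difference of -1.12 (exact permutation p = 0.2). With Ptprc and Fcer1g as the markers the difference was -0.83 (exact permutation p = 0.1), again without overlap. The mean of Cd274 was thus not higher with UMBO relative to any of the 3 sets of myeloid markers, and whether the groups overlapped depended on the set.

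**Figure D3:**
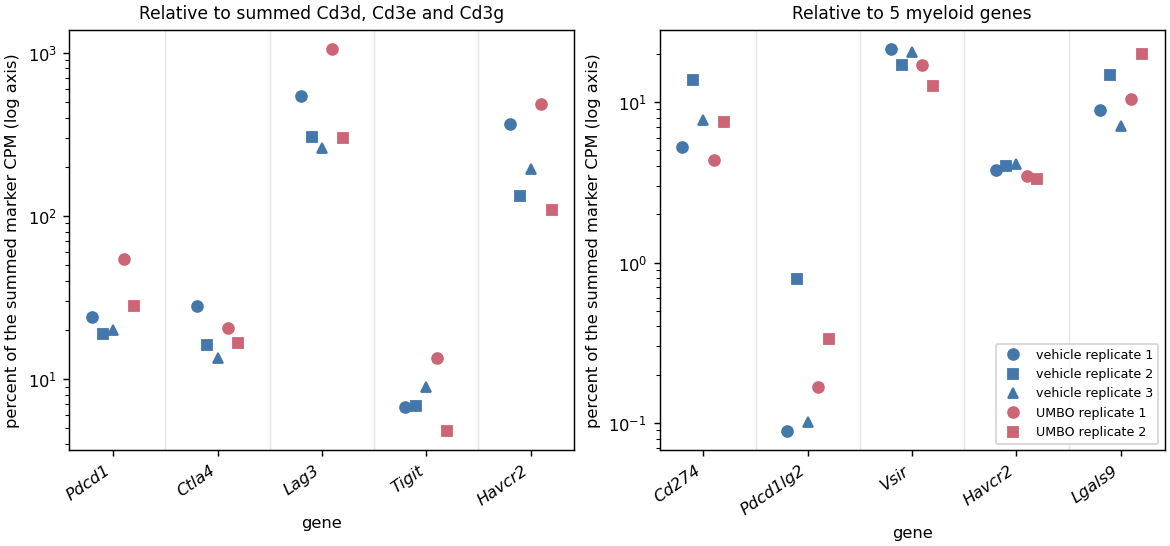
Checkpoint genes as a percent of the summed CPM of Cd3d, Cd3e and Cd3g (left) and of Itgam, Csf1r, Aif1, Cd68 and Tyrobp (right) in the same library, log axes. Each point is a library; Havcr2 is spread from 108% to 487% on the left and lies between 3.32% and 4.10% on the right.

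The partners of these genes were read from a list of 19 ligands and receptors, of which 0 passed adjustment in edgeR, 1 had an unadjusted p under 0.05 (against 7.37% of all genes), and 16 had a positive log2 fold change, with a median of 0.81. That 1 gene was Cd44, an adhesion receptor reported to bind galectin-9, at 8.83, 23.5 and 10.8 CPM with vehicle and 28.4 and 72.4 CPM with UMBO (log2 fold change 1.81, standard error 0.55). On the CTLA-4 axis, Cd86 was at a mean of 6.23 CPM with vehicle and 13.9 CPM with UMBO, Cd80 at 0.963 and 1.82 CPM, and the activating receptor Cd28 at 0.733 and 1.33 CPM. Of these, Cd28 alone had both UMBO libraries above all vehicle libraries. On the TIGIT axis, the ligands Pvr (log2 fold change 0.93, standard error 0.42) and Nectin2 (0.86, standard error 0.36) and the competing receptors Cd226 (0.20, standard error 0.74) and Cd96 (0.46, standard error 0.68) overlapped between the groups. Selplg, a VISTA ligand at acidic pH, did not overlap, at 28.2, 46.6 and 34.3 CPM with vehicle and 48.5 and 58.9 CPM with UMBO. Without UMBO replicate 2 the list median was 0.16.

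For the interferon-gamma route that induces PD-L1, 0 of 11 genes passed adjustment in edgeR and 2 had an unadjusted p under 0.05, Ifngr1 and Cmtm6, both higher with UMBO (against 5.30% of all genes). Cmtm6, which stabilizes PD-L1 protein at the cell surface, was at 26.7, 34.8 and 33.2 CPM with vehicle and 42.2 and 43.6 CPM with UMBO, without overlap (log2 fold change 0.44, standard error 0.18). The receptor chain Ifngr1 was at 17.8, 25.4 and 20.3 CPM with vehicle and 26.2 and 40.4 CPM with UMBO, and Ifngr2 differed by 0.32 on the log2 scale (standard error 0.16). Ifng itself was counted 6, 30 and 23 times with vehicle and 16 and 42 times with UMBO. The transcription factor Irf1, which acts below it, was high in the same libraries as Cd274, at 15.9, 72.3 and 20.2 CPM with vehicle and 32.9 and 159 CPM with UMBO. Vehicle replicate 2 exceeded UMBO replicate 1 in Irf1, and the list median of 0.63 was -0.02 without UMBO replicate 2.

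Further inhibitory and costimulatory genes were also without a call after adjustment. Of 17 tested genes for other inhibitory receptors and ligands, 2 had an unadjusted p under 0.05 in edgeR, against 5.30% of all genes in their direction. These were Tgfb1 (log2 fold change 1.52, standard error 0.48) and the collagen receptor Lair1 (0.94, standard error 0.35), both without overlap between the groups. Cd244a, the next by p, had a log2 fold change of 1.85 with a standard error of 0.91. Of 11 tested costimulatory genes, 11 had a positive log2 fold change (against 50.9% of all genes), with a median of 1.39, and 2 had an unadjusted p under 0.05 (against 5.30% in that direction), Tnfsf18 and Cd48. Tnfsf18, the ligand of GITR, rested on 0, 2 and 3 counts with vehicle and 11 and 12 with UMBO. Cd48 was at 1.04, 3.49 and 1.63 CPM with vehicle and 3.04 and 10.7 CPM with UMBO, and Icosl, the ICOS ligand, differed by 0.64 on the log2 scale (standard error 0.27). The costimulatory median was -0.08 without UMBO replicate 2.

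Genes of T cell exhaustion and regulatory T cells had mixed directions. Of 12 genes 7 had a positive log2 fold change (against 50.9% of all genes) and 5 a negative one, with a median of 0.28 that was -0.16 without UMBO replicate 2. Among the 5, Tox2, Nr4a2 and Nr4a3 had vehicle means of 41.6, 33.7 and 19.6 CPM. The summed CPM of Cd3d, Cd3e and Cd3g was only 1.39 to 7.17 in the vehicle libraries. Which cells held this RNA was not tested, so the directions cannot be assigned to T cells. The 1 gene with an unadjusted p under 0.05 in edgeR (0.0148, adjusted p 0.497) was lower, against 2.06% of all genes. This was Tox, a factor of exhausted T cells that is also transcribed in brain, at 32.5, 25.7 and 26.3 CPM with vehicle and 19.3 and 15.0 CPM with UMBO. Foxp3, which defines regulatory T cells, was at 0.267, 0.386 and 0.165 CPM with vehicle and 0.222 and 0.977 CPM with UMBO, and overlapped. Its exons share 853 bases with Flicr on the same strand, and overlap those of Ccdc22, Gm36995 and Ppp1r3f on the opposite strand, so its counts are uncertain. The groups overlapped as well in Il2ra (log2 fold change 1.00, standard error 0.56) and Batf (log2 fold change 1.60, standard error 0.92).

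Marker genes of the cells that express checkpoint genes differed between the libraries too. All markers with an unadjusted p under 0.05 were higher with UMBO, and 5.30% of all genes were so. Of 16 T cell markers 0 had an unadjusted p under 0.05 in edgeR, and their summed level was 33.0 to 54.4 CPM with vehicle and 22.6 and 77.6 CPM with UMBO. This sum did not follow CD3 RNA. It was 36.7 CPM in vehicle replicate 1 and 33.0 CPM in vehicle replicate 3, where the CD3 sums were 1.39 and 3.69 CPM. Cd4 alone gave 14.6 and 7.31 CPM there. Of 7 NK cell markers 1 had such a p, with a summed level of 2.18 to 10.7 CPM with vehicle and 5.29 and 39.7 CPM with UMBO. Of 7 pan-myeloid markers 5 did, all higher, at 152 to 283 CPM against 331 and 596 CPM. Of 8 microglial markers 5 did, at 324 to 456 CPM against 610 and 733 CPM, and of 8 markers of monocytes and macrophages 1 did, at 25.5 to 127 CPM against 89.7 and 439 CPM. All 10 proliferation genes did, at 34.3 to 103 CPM against 111 and 442 CPM. Without UMBO replicate 2 the median log2 fold change went from 0.80 to -0.84 for T cell markers, from 1.85 to -0.04 for monocytes and macrophages, from 1.68 to 0.64 for pan-myeloid markers and from 0.69 to 0.56 for microglia. None of these lists held a marker at 0 in all libraries, and the part of cell composition in the checkpoint levels was not tested.

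**Figure D4:**
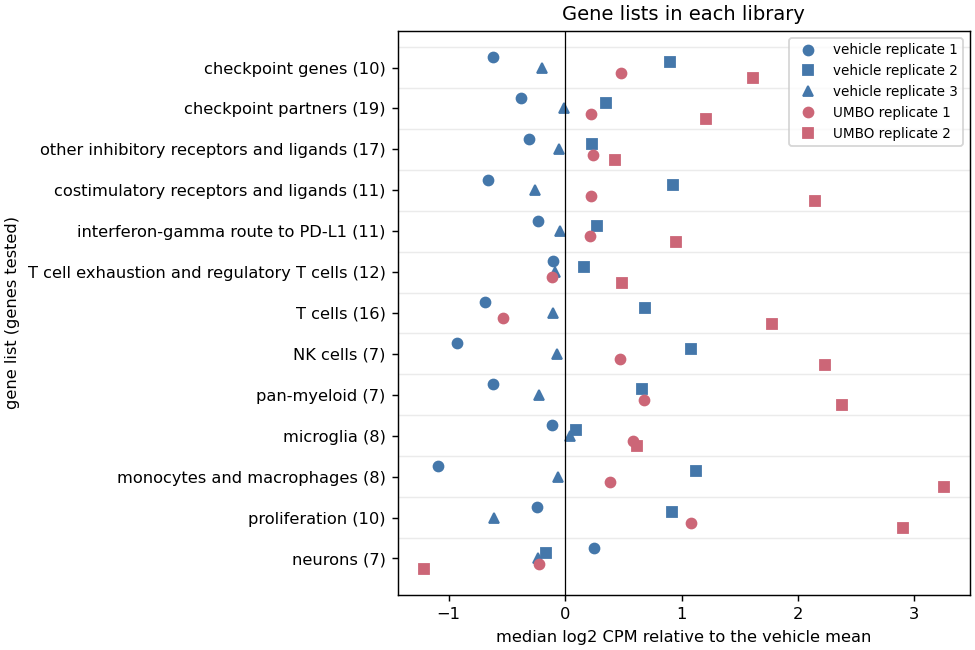
Median log2 CPM of each gene list relative to the vehicle mean, for each library (number of genes tested in parentheses). The checkpoint genes lie at 0.48 and 1.61 in the first and second UMBO replicates, with vehicle replicate 2 at 0.90 between them, and T cell markers lie at -0.53 in UMBO replicate 1.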

How the data were processed

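Libraries from the right hemisphere of 3 vehicle and 2 UMBO mice, assigned from the sample labels, were analysed. The authors mapped reads with STAR 2.7.2a to GRCm38 and deposited raw read counts per Ensembl gene, without normalization. The annotation release and strand setting are not given in the sources used here. Symbols, positions and exon lengths were taken from GENCODE M21 (GRCm38), which held 55394 of 55573 genes. No column of other samples was present.

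Counts were filtered with filterByExpr, scaled by TMM and compared in edgeR 4.0.16 under R 4.3.3 (glmQLFit and its quasi-likelihood F test). P-values of 23592 genes were adjusted together by Benjamini-Hochberg, at a threshold of 0.05, with a common dispersion of 0.1181. DESeq2 1.42.0, used by the authors, served as an alternative. Intervals and standard errors were derived from the edgeR F statistic, and log2 CPM used a prior count of 2. Nothing in the labels states separate cultures or litters, so p-values measure the spread between these 5 mice. Chi-square per gene between libraries was at least 52.2, so no library was a copy of another. The fit was tested on simulated counts.

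The checkpoint genes, lists and tests were chosen with earlier results of these data known. All 10 checkpoint genes are named, as are the 3 genes of smallest p in each pathway list and Cd80, Cd86, Cd28, Pvr, Nectin2, Cd226, Cd96, Ifng, Irf1, Foxp3 and Cmtm6. 1 further gene of that rule is not reported here. For Cd274 the 5 genes with the most similar log2 CPM profile are also given. Alternatives were other scaling, filters, DESeq2, the replicate number as a block, other marker sets and each library left out.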

Additional observations from a re-analysis of the deposited data

How the results depend on the processing

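With 2 UMBO libraries, of which replicate 2 stood apart, single libraries decided most results. With each library left out, the number of genes called over all genes ranged from 0 to 4543 (without UMBO replicate 1), checkpoint genes with an unadjusted p under 0.05 from 0 to 7 (7 without UMBO replicate 1), checkpoint genes with no overlap from 3 to 9 (6 without vehicle replicate 2, 9 without UMBO replicate 1), and the checkpoint median from 0.26 (without UMBO replicate 2) to 1.48 (without vehicle replicate 2). Fold changes on the log2 scale ran from -0.48 to 1.26 for Cd274, -0.54 to 2.80 for Pdcd1lg2, -0.64 to 1.79 for Ctla4 and -0.11 to 1.19 for Tigit, negative only without UMBO replicate 2. Lgals9 had a log2 fold change of 2.21 without UMBO replicate 1. Fits without a UMBO library hold 1 UMBO library, whose spread is taken from the vehicle mice. Their fold changes thus compare that library with the vehicle mice, and their counts of genes below a p threshold are not given. With fewer libraries in a group, a lack of overlap also arises more easily by chance. The 11.5% of all genes in the full fit is therefore no background for the fits with a library left out. Relative to CD3 RNA, the log2 difference ranged from 0.42 to 1.38 for Pdcd1, -0.23 to 1.58 for Lag3, -0.64 to 0.85 for Tigit and -0.96 to 1.21 for Havcr2.

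The DESeq2 Wald test called 39 genes, none of them a checkpoint gene. A filter of CPM of at least 1 in 2 libraries left 1 checkpoint gene with an unadjusted p under 0.05 in edgeR (Vsir). Of all genes in that fit, 7.11% had such a p. Relative to myeloid RNA, Ptprc and Fcer1g as markers gave -0.72 for Vsir and -0.52 for Havcr2, and markers without Csf1r gave -1.01 for Vsir, -0.81 for Havcr2 and -0.04 for Lgals9. The cause was not tested for these. Genes with an unadjusted p under 0.05 numbered 1738 in edgeR, 4100 without a filter, 2738 in DESeq2, 6134 with the replicate block and 296 to 2674 with 1 vehicle library left out. Scaling by library size alone shifted the median over all genes to 0.13 from 0.01.

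With the replicate number as a block, 2337 of 23592 genes passed adjustment. Among them were 5 checkpoint genes: Pdcd1 (1.64), Lag3 (1.25), Havcr2 (0.86), Vsir (0.66) and Lgals9 (1.37). Before adjustment, 26.0% of all tested genes were below 0.05 in that fit, against 7.37% in the main fit. Vehicle replicate 3 shares its number with no other library, so its block fits it exactly. It then adds nothing to the estimate of spread, which rests on the libraries numbered 1 and 2. No label says what a shared number marks, and only 2 numbers are shared (correlations of deviations 0.453 and 0.76). The deviations of 2 libraries from their mean mirror each other, so these correlations cannot settle whether libraries are paired. Some small differences also turned: Pdcd1lg2 relative to myeloid RNA from 0.30 to between -0.30 and -0.01 under 5 alternatives, and Ctla4 relative to CD3 RNA from 0.03 to between -0.19 and -0.06 with 3 single libraries left out. Havcr2 also turned relative to CD3 RNA without vehicle replicate 2 (-0.21). Larger turns relative to CD3 RNA came without UMBO replicate 1, in Havcr2 (-0.96), Tigit (-0.64) and Lag3 (-0.23). Unadjusted p in edgeR crossed 0.05 for Havcr2 with library size alone (0.0502) and for Pdcd1 without a filter (0.0145). With the filter of CPM of at least 1 in 2 libraries it did so for Lag3 (0.0505), Havcr2 (0.0525) and Lgals9 (0.0517). In DESeq2 it did so for Pdcd1 (0.0219). Without vehicle replicate 2 it did so for Pdcd1lg2 (0.011) and Pdcd1 (0.0293), and without vehicle replicate 1 or 3 no checkpoint gene stayed below 0.05. Fits with a UMBO library left out are not included here.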

Other observations

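The 5 genes whose log2 CPM followed that of Cd274 most closely over the 5 libraries, by mean absolute difference of deviations from their own mean, were Gm26698 (0.073), Tgtp2 (0.097), Gm38236, Gm38169 and H2-Oa (0.12 each). Of these, Tgtp2, an interferon-inducible GTPase, was at 6.83, 30.0 and 11.1 CPM with vehicle and 13.3 and 35.4 CPM with UMBO. H2-Oa, a chain of the MHC class II-like molecule H2-O, was at 1.62, 9.06 and 3.09 CPM with vehicle and 2.94 and 9.70 CPM with UMBO. The other 3 are rare noncoding or unclassified transcripts below 1 CPM. This is a description over 5 libraries.

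Activating and inhibitory receptors of the same ligands were compared per exonic length. Cd28 stood to Ctla4 as 0.472, 0.312 and 0.589 with vehicle and as 0.843 and 0.272 with UMBO, so the UMBO libraries held the highest and the lowest ratio. Cd226 stood to Tigit as 0.295, 0.137 and 0.282 with vehicle and 0.110 and 0.167 with UMBO. Cd86 exceeded Cd80 by 4.92-fold to 8.52-fold in all 5 libraries.

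Of 5 B cell markers 1 had an unadjusted p under 0.05 in edgeR (higher), of 7 dendritic cell markers 0, of 6 endothelial markers 3 (higher), of 5 astrocyte markers 1 (higher), and of 5 oligodendrocyte and 7 neuronal markers 0 each. Over all genes, 5.30% had such a p and were higher with UMBO. Their median log2 fold changes were 0.84, 0.86, 0.53, 0.28, -0.04 and -0.44, and -0.16, -0.36, 0.54, 0.36, 0.03 and -0.23 without UMBO replicate 2.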
